A study of Mus musculus with 24 samples.

Results

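Xlr3a, Xlr3b, Xlr4a and Xlr4b belong to 2 subfamilies of near-identical copies, Xlr3 and Xlr4, in the X-linked lymphocyte-regulated (Xlr) gene family of the mouse. They are 4 of the 37621 features counted in these libraries. The copies were found by matching gene symbols to the Ensembl identifiers of the count tables. They had been proposed from the mean knockout minus wild-type difference over the 4 brain regions, so that difference is described here without a test. The study counted poly(A) RNA from dissected cerebellum, cortex, hippocampus and olfactory bulb of C57BL/6 mice that lack the Cdr1as locus (knockout, KO) and of wild-type (WT) mice. Each region and genotype had 3 libraries, which the labels number 1 to 3, and there were 24 in all. Age and the number of animals were not given in the sources used here. Nothing states that libraries of 1 group came from separate animals, so p-values measure only the spread between these libraries.

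Proteins of the Xlr family share a domain with SYCP3, a structural protein of meiotic chromosomes, and the family was first described in mouse lymphocytes. In the mouse brain Xlr3b, Xlr4b and Xlr4c are known as imprinted genes of the X chromosome that are expressed mainly from the maternal copy. XLR3B protein is known from mouse neurons, where it associates with RNA-transport granules in dendrites, and the homeodomain factors CUX1 and CUX2 and the chromatin remodeller ATRX are known regulators of Xlr3b and Xlr4b. Cdr1as, a circular RNA with many miR-7 binding sites, is transcribed from another part of the X chromosome.

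The copies lie in 1 cluster in the order Xlr4a, Xlr3a, Xlr3b, Xlr4b. The 250 bases before the RefSeq gene start of each copy are printed because they show how alike the copies are within a subfamily and what the subfamilies share. In build GRCm38.p6 they span chrX:73097096-73097345 on the minus strand for Xlr3a, chrX:73191929-73192178 on the plus strand for Xlr3b, chrX:73082508-73082757 on the minus strand for Xlr4a and chrX:73214083-73214332 on the plus strand for Xlr4b. Capitals mark CCAAT, the core of the site bound by the factor NF-Y, searched on both strands.
Xlr3a: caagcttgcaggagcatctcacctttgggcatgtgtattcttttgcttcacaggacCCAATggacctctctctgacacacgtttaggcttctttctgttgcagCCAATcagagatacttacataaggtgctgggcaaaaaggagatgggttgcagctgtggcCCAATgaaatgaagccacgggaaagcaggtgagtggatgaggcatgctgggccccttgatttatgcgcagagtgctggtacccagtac
Xlr3b: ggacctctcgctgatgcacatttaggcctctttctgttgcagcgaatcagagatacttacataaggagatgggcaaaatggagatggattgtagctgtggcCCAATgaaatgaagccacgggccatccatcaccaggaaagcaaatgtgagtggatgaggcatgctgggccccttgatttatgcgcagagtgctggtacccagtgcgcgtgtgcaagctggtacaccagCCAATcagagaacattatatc
Xlr4a: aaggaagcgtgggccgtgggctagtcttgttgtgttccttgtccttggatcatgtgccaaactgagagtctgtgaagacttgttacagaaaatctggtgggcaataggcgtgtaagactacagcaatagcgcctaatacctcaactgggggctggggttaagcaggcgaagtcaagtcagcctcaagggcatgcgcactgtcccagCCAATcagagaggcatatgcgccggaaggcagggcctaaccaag
Xlr4b: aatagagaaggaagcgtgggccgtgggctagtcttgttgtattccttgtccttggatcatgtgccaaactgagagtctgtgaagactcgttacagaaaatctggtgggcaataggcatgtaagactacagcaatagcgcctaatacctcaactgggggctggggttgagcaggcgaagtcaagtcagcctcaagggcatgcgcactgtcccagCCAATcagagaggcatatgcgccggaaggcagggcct
Over their RefSeq promoter windows (250 bases before to 50 after the start) Xlr4a and Xlr4b were identical at 288 of 292 aligned bases (gaps left out), which is 98.6%. Xlr3a and Xlr3b were identical at 223 of 237 aligned bases, or 94.1%. CCAAT occurred 3 times in the Xlr3a window, 2 times in that of Xlr3b and 1 time each in those of Xlr4a and Xlr4b, always on the strand of the gene. Of the 250 bases before the start in all 32851 RefSeq promoters, 33.8% held CCAAT on either strand. The longest word that the 4 windows shared was cagCCAATcagaga, of 14 bases. It occurred in 16 of the 32851 windows, 6 of them of Xlr3 or Xlr4 copies. No match to the TATA box (TATAAA, in 12.4% of all windows) or the CREB site (TGACGTCA, in 1.55%) was found on either strand in the 4 windows. Nor was there a match to the AP-1 site (TGANTCA, in 6.75%) or to a CUX site (ATCGAT, in 0.728%). Only these words and CCAAT were searched, so other sites of these factors may be present, and nothing is read about their binding.

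The likeness of the copies limits what a count per copy can show. The count tables set apart reads that aligned to more than 1 place, 10.3% to 13.5% of all reads in a table, so that the gene counts hold uniquely placed reads. The longest annotated protein-coding transcripts of Xlr3a and Xlr3b (GENCODE M21) were identical at 98.8% of aligned bases, and those of Xlr4a and Xlr4b at 98.9%. The third copies were at least as alike: Xlr3b and Xlr3c were identical at 99.1%, and Xlr4b and Xlr4c at 99.1%. Of the 100-base windows of each transcript, the share found in no transcript of another gene was 52.5% for Xlr3a, 27.4% for Xlr3b, 54.5% for Xlr4a and 47.2% for Xlr4b. The read length was not given in the sources used here. Counts can therefore understate the copies to different degrees. The sums of Xlr3a and Xlr3b and of Xlr4a and Xlr4b were analysed beside each copy. These sums add uniquely placed reads only, so reads that fit more than 1 copy are missing from them too. A difference between genotypes compares a copy with itself and is not affected by its length.

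Each library had 21.1 to 40.5 M gene counts. Levels are given as CPM, counts per 1 M counts, scaled by trimmed mean of M-values (TMM) factors, and 1 count was worth 0.0229 to 0.0509 CPM. Cdr1asG, the feature of the Cdr1as locus, lay between 0.115 and 1.95 CPM in the 12 knockout libraries and between 2.23 and 29.0 CPM in the 12 wild-type libraries, with the groups apart in every region. All 24 libraries had Y-linked transcripts, and Xist, which silences an X chromosome in females, was at most 0.214 CPM. Markers of each region were highest in the libraries of that region, but those of the olfactory bulb also differed between genotypes elsewhere. Summed over 7 genes they were 42.2, 47.0 and 47.2 CPM in knockout cortex libraries and 103, 66.0 and 68.0 CPM in wild-type cortex libraries, with 5 of 7 called lower in knockout (edgeR, median -1.16 on the log2 scale over the 7), beside 0.0985% of all genes tested. In the cerebellum they were 72.0, 85.8 and 99.8 CPM in knockout and 43.5, 32.3 and 42.3 CPM in wild-type libraries. That higher sum does not speak for the list. Of the 7 genes 2 were higher and 5 lower in knockout cerebellum, with a median of -0.10 on the log2 scale, and 0 were called by edgeR. Summed choroid plexus markers exceeded 1000 CPM in 1 knockout library (cerebellum library 2, 1335 CPM) and in 4 wild-type libraries (cerebellum 1 and 2 with 2071 and 2420 CPM, hippocampus 1 and 3 with 2540 and 3345 CPM). In bulk tissue fewer cells of a type and less RNA per cell cannot be told apart.

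Xlr3b had the most counts of the 4 copies, 680 in the knockout libraries and 2070 in the wild-type libraries. In the cerebellum it had 3.64, 3.48 and 1.91 CPM in knockout libraries 1 to 3, against 18.0, 5.61 and 8.83 CPM in wild-type libraries 1 to 3. In the cortex it had 0.713, 1.64 and 1.02 CPM in knockout libraries and 4.17, 1.85 and 3.91 CPM in wild-type libraries. In these regions all knockout libraries lay below all wild-type libraries, but in the cortex knockout library 2 came close to wild-type library 2. The hippocampus had 1.70, 0.685 and 0.679 CPM in knockout libraries and 7.16, 2.01 and 3.91 CPM in wild-type libraries, again with no overlap. In the olfactory bulb the values were 1.65, 1.49 and 2.12 CPM in knockout libraries and 10.7, 1.56 and 6.35 CPM in wild-type libraries, and wild-type library 2 lay within the knockout range. Xlr3b was thus below wild type with no overlap in 3 of 4 regions. Over all 17266 genes tested, 0.568% had no overlap in this direction in at least 3 regions, and 5.09% in the hippocampus, counted region by region. Since the 4 copies were chosen from this contrast, nothing is read from these shares, nor from those beside the other copies below.

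Xlr3a is the other measured copy of the Xlr3 subfamily. In the cerebellum it had 2.26, 0.907 and 0.411 CPM in knockout libraries and 4.90, 1.66 and 3.16 CPM in wild-type libraries. In the cortex it had 0.624, 0.731 and 0.281 CPM in knockout libraries and 2.03, 2.42 and 2.78 CPM in wild-type libraries, which was the clearest separation of this copy. The hippocampus had 1.30, 0.994 and 1.18 CPM in knockout libraries, inside the wild-type span of 1.62, 0.707 and 3.41 CPM. The olfactory bulb had 1.57, 1.19 and 0.255 CPM in knockout libraries and 2.82, 1.76 and 3.86 CPM in wild-type libraries, with no overlap, as 4.33% of all genes tested had in that region and direction. Xlr3a was below wild type without overlap in 2 of 4 regions, as were 2.66% of all genes tested in at least 2 regions. Knockout library 3 was the lowest knockout library in 3 of 4 regions for Xlr3a, and for Xlr3b in 2 of 4.

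Xlr4a was seen in few reads outside some wild-type libraries. Its counts in the cerebellum were 28, 4 and 9 in knockout libraries 1 to 3 and 100, 8 and 23 in wild-type libraries. The cortex had 2, 1 and 1 counts in knockout libraries and 6, 4 and 11 in wild-type libraries. The hippocampus had 0, 3 and 1 counts in knockout libraries and 47, 0 and 13 in wild-type libraries. A count of 0 allows up to 3 counts, or 0.134 CPM in knockout hippocampus library 1 and 0.112 CPM in wild-type hippocampus library 2. In the olfactory bulb the counts were 4, 2 and 10 in knockout libraries and 58, 8 and 13 in wild-type libraries. Wild-type library 2 had the lowest wild-type value in all 4 regions and wild-type library 1 the highest in 3 of 4; for Xlr3b both held in all 4. The genotypes were apart in 1 of 4 regions, the cortex, where 4.29% of all genes tested lay lower in knockout with no overlap.

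Xlr4b, an imprinted copy, had 1, 4 and 0 counts in knockout cerebella, against 24, 13 and 72 counts in wild-type cerebella. This was the only region in which its genotypes did not overlap; 5.01% of all genes tested did so in this direction in the cerebellum. In the cortex it had 5, 9 and 2 counts in knockout libraries and 3, 14 and 9 counts in wild-type libraries. The hippocampus had 0, 5 and 5 counts in knockout libraries and 16, 7 and 4 in wild-type libraries, and the olfactory bulb had 6, 19 and 3 counts in knockout libraries and 20, 27 and 8 in wild-type libraries. Xlr4b did not follow the wild-type order of Xlr3b and Xlr4a: wild-type library 2 was its lowest in 1 region and its highest in 2 regions.

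**Figure D1:**
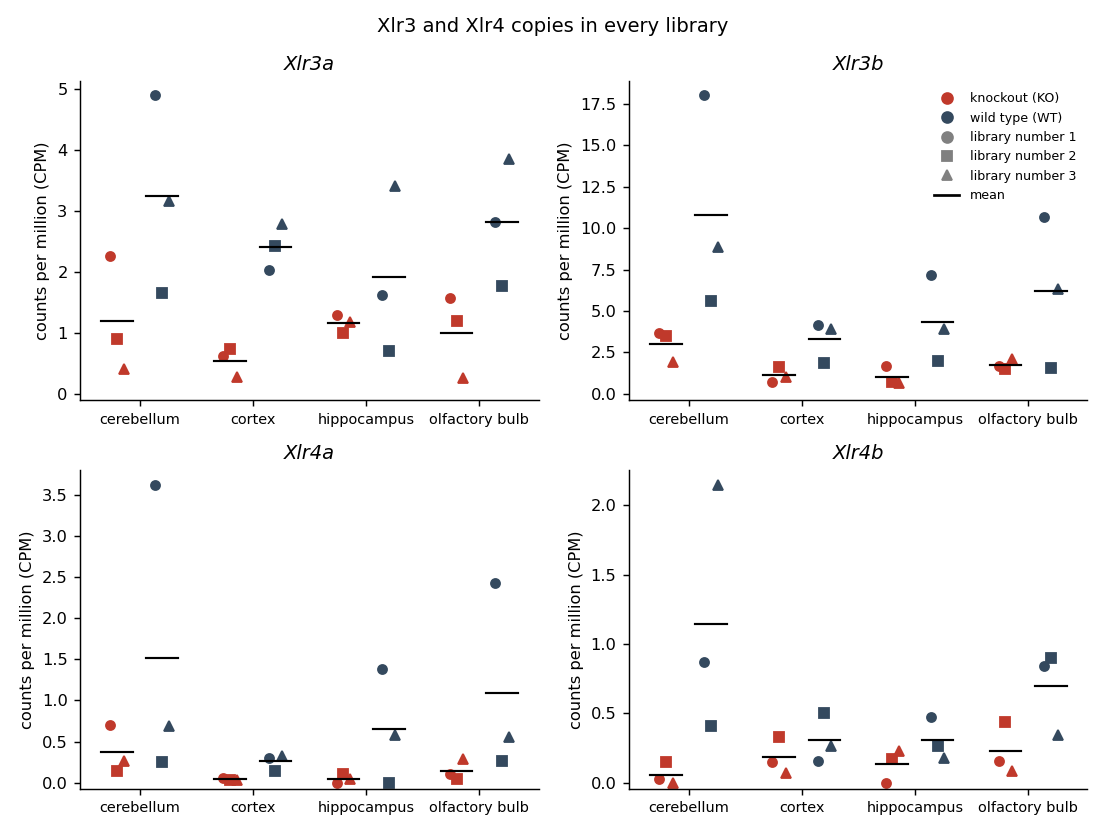
CPM (TMM-scaled, linear axes) of Xlr3a, Xlr3b, Xlr4a and Xlr4b in each of the 24 libraries by region, with knockout libraries in red left of wild-type libraries in dark blue; marker shapes give the library number and black lines the mean of 3. Wild-type library 1 (circles) is the highest for Xlr3b in all 4 regions, and wild-type library 2 (squares) the lowest.

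The mean difference of knockout minus wild type over the 4 regions, from 1 edgeR fit of all 24 libraries, was -1.43 for Xlr3a, -1.83 for Xlr3b, -2.71 for Xlr4a and -1.99 for Xlr4b on the log2 scale. Standard errors were 0.31, 0.31, 0.66 and 0.44. These and the SEs that follow treat the 24 libraries as independent. The difference followed the library number across regions, as given below, and the SEs do not include that shared part. Xlr4a and Xlr4b did not pass the filter on low counts among the knockout libraries alone. They entered this fit through their wild-type counts, and such entry favours genes that are lower in knockout. For the sum of Xlr3a and Xlr3b the difference was -1.69 (SE 0.26), a level lower by 3.22 times in knockout, and for the sum of Xlr4a and Xlr4b it was -2.13 (SE 0.40). Across all 17266 genes tested, 2.68% were called in this contrast at an adjusted p under 0.05 (edgeR's quasi-likelihood test, Benjamini-Hochberg adjustment) and 0.863% were called lower in knockout. The number of genes called was 462, against 1256 with the replicate number as a block, 790 in DESeq2, 217 without the cortex, 200 without the libraries numbered 2, 99 without the choroid-plexus-rich libraries and 0 with libraries summed over regions. The 4 copies entered this contrast as its selected genes and no p is given for them.

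Region by region the Xlr3 sum differed by -1.74 (SE 0.50) in the cerebellum, -1.78 (SE 0.53) in the cortex, -1.54 (SE 0.53) in the hippocampus and -1.70 (SE 0.51) in the olfactory bulb. The Xlr4 sum differed by -2.59 (SE 0.72), -1.33 (SE 0.87), -2.37 (SE 0.88) and -2.24 (SE 0.74) in the same order. Knockout was lower than wild type in 12 of 12 pairs of equal region and library number for Xlr3b and for the Xlr3 sum, and in 11 of 12 for Xlr3a, Xlr4a and Xlr4b. Of all genes tested, 0.539% were lower in 12 of 12 pairs and 2.28% in at least 11 of 12. Since the copies were chosen from this contrast, nothing is read from these shares. For Xlr4a and Xlr4b the pair counts share the limit given above, of entry through wild-type counts. The 12 pairs are also not 12 independent units, as the difference followed the library number across regions. Without the cortex, where olfactory bulb markers were lower in knockout, the mean difference was -1.65 (SE 0.32) for the Xlr3 sum and -2.39 (SE 0.50) for the Xlr4 sum. Without the 5 choroid-plexus-rich libraries the mean difference was -1.34 (SE 0.28) for the Xlr3 sum and -1.63 (SE 0.43) for the Xlr4 sum. The cortex and olfactory bulb hold none of these libraries. In the hippocampus only wild-type library 2 remained, and the Xlr3 sum there differed by -0.33 (SE 0.66). For Xlr4a, whose only remaining wild-type hippocampus library had 0 counts, that fit gave a mean of -0.50 with an SE of 3.42.

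Whether the knockout difference itself varied between regions was not used in choosing the genes and was tested. Xlr4a and Xlr4b entered this test too through their wild-type counts, and their knockout libraries held few counts. No copy and neither sum was called by edgeR's quasi-likelihood test (adjusted p = 1 for each), while 0.0232% of all genes tested were, and 0 of the 4 copies had an unadjusted p under 0.05. Xlr4b had the smallest unadjusted p of the copies in that edgeR test, 0.0526, and an unadjusted p of 0.0225 in DESeq2, which gave it no adjusted p and called none of the other copies. The knockout difference of Xlr4b in the cerebellum minus the mean of the other regions was -3.22 on the log2 scale (SE 1.08, 95% interval -5.33 to -1.10, computed from the SE), with an edgeR adjusted p of 1; 0.00579% of all genes were called in that contrast. For the Xlr3 sum the cerebellum differed from the other regions by -0.06 with a 95% interval of -1.21 to 1.08, so a difference of up to about that size between regions was not detectable beside the spread between these libraries.

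The knockout difference was not the same at each library number. For the Xlr3 sum the log2 ratio of knockout to wild-type library 1 was -1.95 in the cerebellum, -2.17 in the cortex, -1.54 in the hippocampus and -2.05 in the olfactory bulb, with a mean of -1.93. Between libraries 2 it was -0.72, -0.83, -0.68 and -0.30, with a mean of -0.63. Between libraries 3 it was -2.35, -2.32, -1.95 and -2.08, with a mean of -2.17. The pair of libraries numbered 2 thus differed least in every region. The mean level of the Xlr3 sum over regions was 3.37, 2.78 and 1.96 CPM in knockout libraries 1 to 3, against 12.8, 4.40 and 9.06 CPM in wild-type libraries 1 to 3. The gap at number 2 came with a lower wild-type level, which was the lowest of the 3 wild-type libraries in all 4 regions. Without the libraries numbered 2 the mean difference of the Xlr3 sum was -2.04 (SE 0.21) and that of the Xlr4 sum -2.64 (SE 0.42). The sources used here do not say what the numbers stand for, and their part in the result was not tested.

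**Figure D2:**
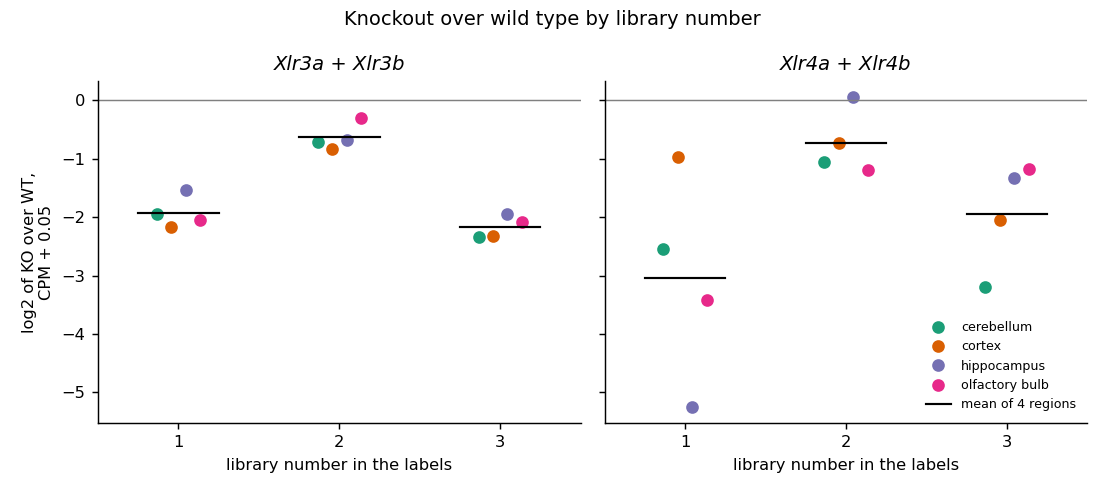
Log2 ratio of knockout over wild type (CPM plus 0.05) for the sums of Xlr3a and Xlr3b and of Xlr4a and Xlr4b, between libraries of equal region and number; colours are regions and black lines the mean of 4 regions. For the Xlr3 sum the means are -1.93, -0.63 and -2.17 at numbers 1, 2 and 3, and libraries 2 are nearest to 0 in each region.

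The level of the copies by region was compared within each genotype. In knockout libraries Xlr3b averaged 3.01 ± 0.959 CPM in the cerebellum, 1.75 ± 0.329 CPM in the olfactory bulb, 1.13 ± 0.475 CPM in the cortex and 1.02 ± 0.587 CPM in the hippocampus (SD, n = 3 each). In wild-type libraries it averaged 10.8 ± 6.43 CPM in the cerebellum, 6.19 ± 4.56 CPM in the olfactory bulb, 4.36 ± 2.61 CPM in the hippocampus and 3.31 ± 1.27 CPM in the cortex (SD, n = 3 each). The cerebellum came first and the olfactory bulb second in both genotypes. Among knockout libraries Xlr3b differed between regions (edgeR's quasi-likelihood adjusted p = 0.0107), as did 75.1% of all genes tested. Its level was higher in the cerebellum than in the cortex by 1.41 (log2, SE 0.40, adjusted p = 0.00861) and than in the hippocampus by 1.55 (SE 0.41, adjusted p = 0.00636). Of all genes tested 59.7% and 57.4% were called in these pairs, cerebellum with cortex first. The other 4 region pairs, all neighbours in this order among them, were not called for Xlr3b in knockout libraries, where 52.4% (cerebellum and olfactory bulb), 48.7% (cortex and olfactory bulb), 46.7% (hippocampus and olfactory bulb) and 21% (cortex and hippocampus) of all genes were. The overall knockout call did not hold without cerebellum library 1 (edgeR adjusted p = 0.0503) or in a fit of all 24 libraries (0.0925). In that fit of 24 libraries the cerebellum differed from the cortex by 1.43 (SE 0.63, adjusted p = 0.0600), which was not called, and from the hippocampus by 1.57 (SE 0.65, adjusted p = 0.047). Among wild-type libraries, where the spread was larger, Xlr3b was not called (adjusted p = 0.158), beside 67.8% of all genes tested that were. It was called without the libraries numbered 2 (edgeR adjusted p = 0.0293) and with the replicate number as a block (0.000763). The wild-type result for Xlr3b thus depended on how the library numbers were handled.

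Xlr3a was not called between regions. It averaged 1.19 ± 0.958, 1.16 ± 0.153, 1.01 ± 0.678 and 0.545 ± 0.235 CPM in knockout cerebellum, hippocampus, olfactory bulb and cortex (SD, n = 3 each). In wild type it averaged 3.24 ± 1.62, 2.81 ± 1.05, 2.41 ± 0.375 and 1.91 ± 1.38 CPM in cerebellum, olfactory bulb, cortex and hippocampus (SD, n = 3 each). No region difference of Xlr3a was called by edgeR in knockout libraries (adjusted p = 0.431) or in wild-type libraries (adjusted p = 0.557). The Xlr3 sum was called by edgeR in knockout libraries (adjusted p = 0.0239) and not in wild-type libraries (adjusted p = 0.178). In wild type it was called without the libraries numbered 2 (0.0107) and with the replicate number as a block (0.00384). The knockout call did not hold without cerebellum library 2, the only choroid-plexus-rich knockout library (adjusted p = 0.0631), nor without cerebellum library 1 (0.106), cortex library 1 (0.0721) or cortex library 3 (0.0695).

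Xlr4a and Xlr4b did not pass the filter on low counts among the 12 knockout libraries. In wild-type libraries Xlr4b averaged 1.14 ± 0.902 CPM in the cerebellum, 0.694 ± 0.305 CPM in the olfactory bulb, 0.306 ± 0.176 CPM in the cortex and 0.304 ± 0.151 CPM in the hippocampus (SD, n = 3 each). Xlr4b differed between wild-type regions (edgeR's quasi-likelihood adjusted p = 0.0435). It was higher in the cerebellum than in the cortex by 1.85 (log2, SE 0.64, adjusted p = 0.0284) and than in the hippocampus by 1.85 (SE 0.64, adjusted p = 0.0304). In these pairs 53.7% and 49.0% of all genes tested were called, cortex first. The other pairs were not called for Xlr4b, beside 46.4% (cerebellum and olfactory bulb), 44.3% (cortex and olfactory bulb), 40.9% (hippocampus and olfactory bulb) and 13.5% (cortex and hippocampus) of all genes. Leaving out 1 library ended the overall call in 8 of 12 fits: without wild-type cerebellum library 3, which held 72 of the 109 counts of that group, the edgeR adjusted p was 0.162, and in the others, cerebellum 1, cortex 1 and 3, hippocampus 2 and 3 and olfactory bulb 1 and 2, it was between 0.0552 and 0.0904. Both pairs were lost without wild-type cerebellum library 3, where the differences were 1.0 each on the log2 scale (edgeR adjusted p = 0.199 for the cortex and 0.212 for the hippocampus). The pair with the cortex was also lost without cortex library 1 (0.0899) or 3 (0.0923), and the pair with the hippocampus without hippocampus library 2 (0.0880) or 3 (0.101). With the replicate number as a block the overall call was lost (edgeR adjusted p = 0.0800), as was the pair with the hippocampus (0.0507). The pair with the cortex was kept (0.0473). Xlr4a averaged 1.52 ± 1.84, 1.09 ± 1.18, 0.656 ± 0.695 and 0.258 ± 0.10 CPM in wild-type cerebellum, olfactory bulb, hippocampus and cortex (SD, n = 3 each), with SDs above the means in 3 regions. It was not called by edgeR (adjusted p = 0.345), but was with the replicate number as a block (0.0458).

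Levels of different copies depend on transcript length and on how much of each transcript can be told from the other copies. In the cerebellum Xlr3b had 1.93 CPM per kb of its longest protein-coding transcript in knockout and 6.92 in wild type, and Xlr3a 0.725 in knockout and 1.97 in wild type. Xlr4a had 0.319 in knockout and 1.31 in wild type, and Xlr4b 0.0435 in knockout and 0.876 in wild type. This scale makes no allowance for the share of unique windows. In knockout hippocampus the order of the Xlr3 copies turned with the scale: Xlr3b had 0.653 CPM per kb and Xlr3a 0.703, but per 1000 unique 100-base windows Xlr3b had 2.55 CPM and Xlr3a 1.43. In the other groups of region and genotype Xlr3b had the highest mean of the 4 copies on both scales. Since the read length is not known, neither scale is exact.

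The split of the Xlr3 counts between the copies varied from library to library by more than counting error. Xlr3b made up 36.6% to 89.3% of the Xlr3 counts in knockout libraries and 43.3% to 81.5% in wild-type libraries. In the cerebellum the share was 61.7%, 79.3% and 82.3% in knockout libraries 1 to 3 and 78.6%, 77.2% and 73.6% in wild-type libraries. The exact 95% Clopper-Pearson interval of knockout library 1 (55.2% to 67.9%) did not reach that of any other cerebellar library. In the olfactory bulb the share was 51.2%, 55.6% and 89.3% in knockout libraries and 79.1%, 47.0% and 62.2% in wild-type libraries. The hippocampus had the lowest knockout shares, 56.7%, 40.8% and 36.6%, against 81.5%, 74.0% and 53.4% in wild type. Knockout and wild-type shares overlapped in every region, and the genotypes were not apart by this share. These intervals cover counting error only, as do the limits for counts of 0.

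**Figure D3:**
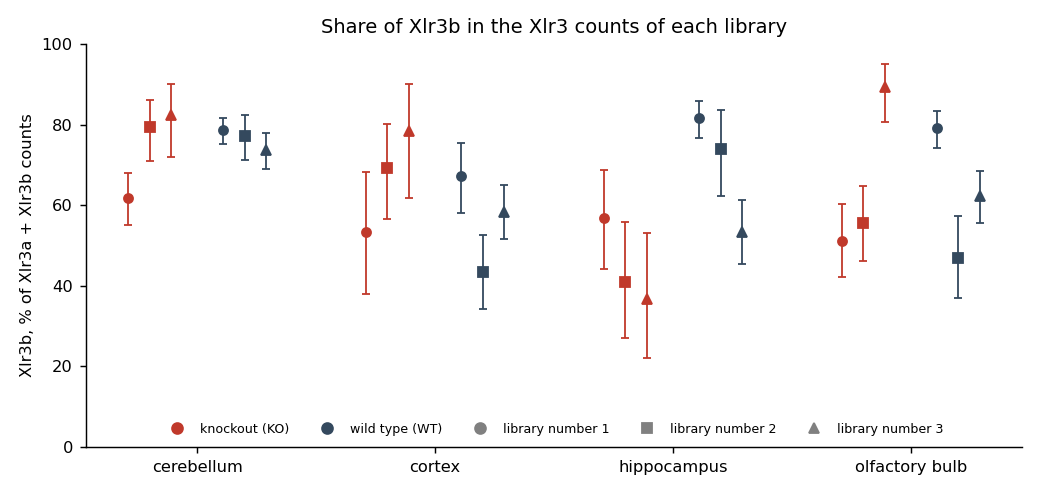
Share of Xlr3b in the sum of Xlr3a and Xlr3b counts (percent) in each library by region, knockout in red left of wild type in dark blue, with exact 95% Clopper-Pearson intervals as bars. The shares run from 36.6% to 89.3% in knockout and from 43.3% to 81.5% in wild type, and the genotypes overlap in every region.

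Over the 24 libraries Xlr3b was most like Xlr4a among the copies, with r = 0.84 of log2 CPM, and r = 0.66 after the mean of each region and genotype was removed. Xlr3a and Xlr3b had r = 0.67 and r = 0.40 on the same 2 measures. Xlr4a and Xlr4b, the pair among these copies with the most alike promoters, had r = 0.44 and r = 0.06. These are descriptions over 24 libraries that share depth, genotype and region, and many libraries held few counts of the Xlr4 copies.

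Among 14434 genes with a mean of at least 1 CPM, the 5 whose log2 CPM was most like the Xlr3 sum over the 24 libraries were Zc3h6 (r = 0.86), Cdr1asG (0.83), Nkap (0.82), Smim20 (0.80) and Lcmt2 (0.77). These values include the difference between genotypes. Within the 12 wild-type libraries alone the 5 genes had r between 0.48 (Lcmt2) and 0.91 (Smim20) with the Xlr3 sum, and r between -0.07 (Lcmt2) and 0.93 (Smim20) with region means removed. Cdr1asG, the targeted locus, had r = 0.88 there (Spearman's rho 0.84), and r = 0.76 without the 2 libraries farthest from the median of Cdr1asG. Within the 12 knockout libraries its r was 0.14 and its rho 0.17, and r was 0.44 without the 2 libraries farthest from the median of Cdr1asG. A knockout library held only 4 to 43 counts of Cdr1asG, which limits these values. The r of the other 4 genes in knockout lay between 0.43 (Smim20) and 0.80 (Zc3h6). Wild-type Cdr1asG had its lowest level in library 2 of the cerebellum, cortex, hippocampus and olfactory bulb (6.18, 3.81, 2.27 and 2.23 CPM), the same libraries that were lowest for Xlr3b. After removal of group means the 5 most like genes were Morc2b (0.81), Tmem267 (0.81), Shisa9 (0.80), Sox11 (0.80) and Znhit6 (0.79). Within wild type, with region means removed, Sox11 reached r = 0.95 and Shisa9 r = 0.95, above that of Smim20 (0.93) and of Cdr1asG (0.88) on the same measure. In knockout libraries these were 0.40 and 0.30. Sox11 and Shisa9 were chosen on deviations that include the wild-type ones, so their rank above Smim20 and Cdr1asG follows partly from the choice. The points share library, depth and number, and no p is given.

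**Figure D4:**
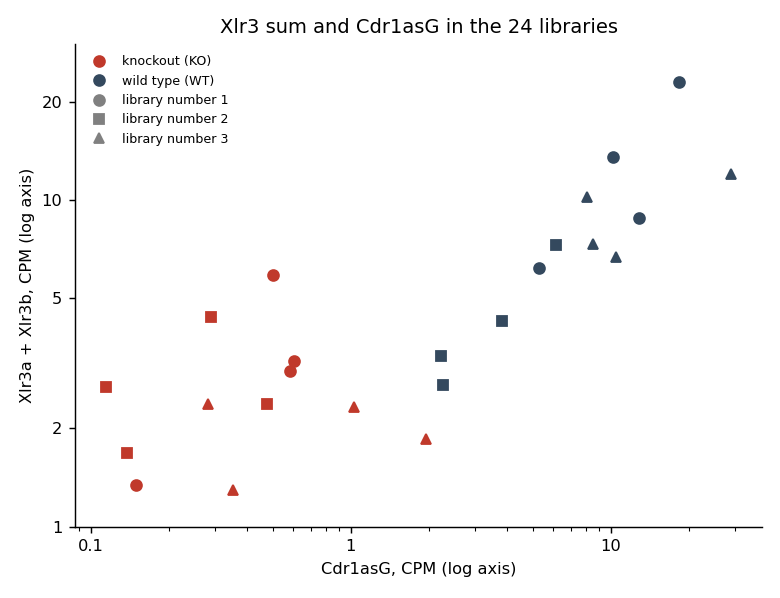
Sum of Xlr3a and Xlr3b against Cdr1asG in each library (CPM, both axes logarithmic), knockout in red and wild type in dark blue, with marker shapes for the library number. Cdr1asG lies between 0.115 and 1.95 CPM in knockout and between 2.23 and 29.0 CPM in wild type; the 4 wild-type libraries numbered 2 (dark squares) have the lowest wild-type Xlr3 sum of their region.

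The other features of the family had few counts or were not called. Xlr, the founding member, had 247 counts in the 12 knockout libraries and 247 in the 12 wild-type libraries, passed the filter and differed by -0.19 (log2, SE 0.17, edgeR's quasi-likelihood adjusted p = 0.716). Xlr4c, the third Xlr4 copy, had 30 counts in knockout libraries and 12 in wild-type libraries and did not pass the filter. Xlr5a had 4 counts in knockout libraries and 10 in wild-type libraries, Xlr5c had 0 in knockout and 3 in wild type, and Xlr3c had 1 in each. The 6 pseudogenes in the files had at most 3 counts each over all libraries, and Xlr5b and Slxl1 had 0. With Xlr4c and the other measured Xlr4 features added, the mean difference of the Xlr4 sum was -1.71 (SE 0.44) in place of -2.13, and in the hippocampus it was -1.29 in place of -2.37.

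Genes around the cluster were also examined. Of the 70 other features within 1 Mb of the cluster in the reference annotation, 34 were tested, 16 higher and 18 lower in knockout, with a median of -0.01 on the log2 scale beside 0.00 over all genes. None of the 34 was called by edgeR or DESeq2, which is near the 2.68% of all genes called, and 2 had an unadjusted p under 0.05; their differences ran from -0.35 to 0.43. The nearest tested genes on the Xlr4a side were Pnma3 (-0.07, SE 0.09) and Zfp185 (-0.28, SE 0.24), and on the other side Zfp275 (0.10, SE 0.07) and Zfp92 (0.06, SE 0.25). F8a, which lies between Xlr4b and Xlr4c, differed by -0.11 (SE 0.07).

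**Figure D5:**
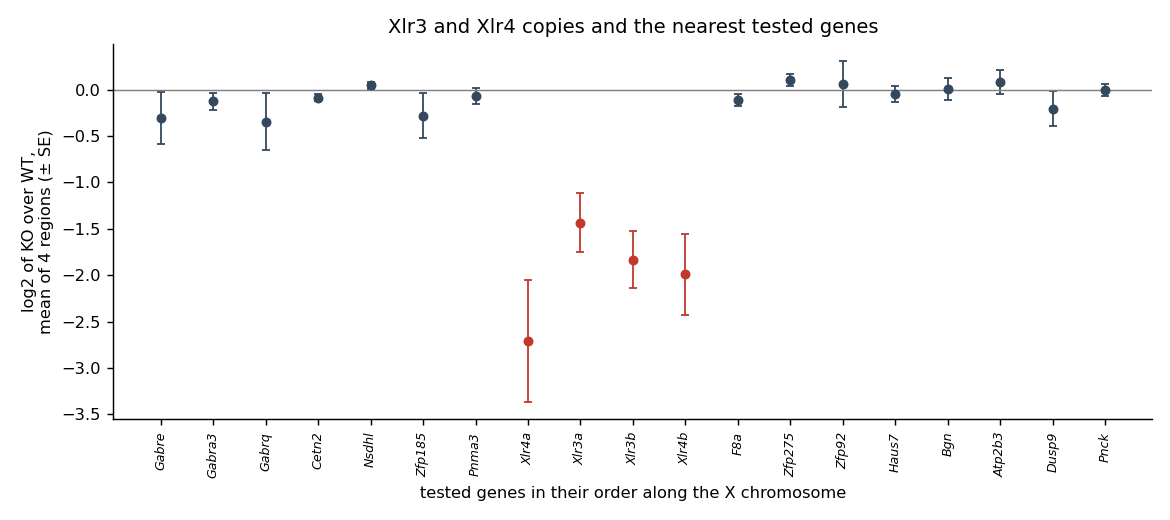
Log2 ratio of knockout over wild type, mean of 4 regions with standard error, for Xlr4a, Xlr3a, Xlr3b and Xlr4b (red), F8a and the 7 nearest tested genes on each side (dark blue), in their order along the X chromosome. The copies lie between -2.71 and -1.43, and the plotted neighbours between -0.35 (Gabrq) and 0.10 (Zfp275).

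Known regulators and partners of the copies were set beside them. Of 8 genes in this list 0 were called by edgeR's quasi-likelihood test or by DESeq2 and 0 had an unadjusted p under 0.05; with 2.68% of all genes called, a count of 0 among so few genes says nothing about the list. The median difference was 0.01 on the log2 scale. Cux1 differed by 0.01 (SE 0.07), Cux2 by 0.10 (SE 0.09), Atrx by -0.01 (SE 0.15) and Daxx, the partner of ATRX, by 0.07 (SE 0.05). The granule protein gene Tia1 differed by -0.15 (SE 0.14), the kinase gene Uhmk1 by 0.01 (SE 0.14) and Camk2a, whose mRNA is transported in dendrites, by 0.12 (SE 0.08).

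The 29 tested genes of a list of 37 imprinted genes had a median of -0.05 on the log2 scale, 9 higher and 20 lower in knockout. The counts by region leaned different ways. In the hippocampus 5 were higher and 24 lower (median -0.16, beside 0 over all genes). There wild-type libraries 1 and 3 were rich in choroid plexus markers and no knockout library was, and the part of this was not tested. In the cortex 9 were higher and 20 lower (-0.09). In the cerebellum 14 were higher and 15 lower (0.00), and in the olfactory bulb 22 were higher and 7 lower (0.15). Of the 29, 0 were called by edgeR or DESeq2 for a knockout difference that varied between regions, beside 0.0232% of all genes in edgeR. In edgeR 1 of them had an unadjusted p under 0.05 there. None was called in the mean by edgeR or DESeq2, near the 2.68% of all genes, and 2 had an unadjusted p under 0.05. The smallest p belonged to Peg10, a retrotransposon-derived paternally expressed gene, with -0.38 (SE 0.13, edgeR adjusted p = 0.145), and to the zinc finger gene Plagl1, with -0.27 (SE 0.10, edgeR adjusted p = 0.199).

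Markers of cells in which the family is known were set beside the copies. Summed lymphocyte markers ranged from 2.87 to 18.4 CPM in knockout libraries and from 2.48 to 19.4 CPM in wild-type libraries, and of the 10 markers 5 passed the filter, 0 of them called by edgeR or DESeq2 and 0 at an unadjusted p under 0.05. Summed germ cell markers ranged from 4.48 to 27.7 CPM in knockout and from 4.20 to 26.9 CPM in wild type, with 0 of 4 called by edgeR or DESeq2 and 0 at an unadjusted p under 0.05. Beside the 2.68% of all genes called, these counts of 0 say nothing about either list. Choroid plexus markers were lower in knockout for 10 of 10, with a median of -1.50 on the log2 scale. Of these 1 fell, Clic6, a chloride channel gene (-1.76, SE 0.44, edgeR adjusted p = 0.0361), while DESeq2 called 3 and the fit with the replicate block called 0. Their part in the difference of the Xlr3 and Xlr4 sums was not tested beyond the fit without those libraries given above.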

How the data were processed

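Poly(A) RNA was extracted with TRIZOL and made into libraries with the TruSeq Stranded mRNA kit, per the labels' protocols. The deposited values are raw counts of reads per Ensembl gene, 1 table for each of the 24 libraries. Per the submitters' processing notes, the tools were bcl2fastq 2.17.1.14, STAR 2.5.1b and HTSeq 0.6.1p1 with build mm9. The strand setting of the counting was not given in the sources used here, so reads of antisense partners may be included. The 5 summary rows (no feature, ambiguous, not unique and so on) were left out of library sizes and tests: they held 8.22% to 16.8% of a table's reads as outside any feature, 0.576% to 0.764% as ambiguous and 10.3% to 13.5% as placed in several spots. Of the 37621 identifiers 32897 matched a symbol.

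Counts were tested with edgeR 4.0.16 (R 4.3.3; filterByExpr, TMM, robust quasi-likelihood fit and F test, Benjamini-Hochberg over all genes tested, called at an adjusted p under 0.05). Knockout against wild type and its differences between regions were fitted on 24 libraries and 17266 genes, region differences on 12 libraries and 16729 genes in wild type and on 12 libraries and 16875 genes in knockout. Sums replaced their copies in separate fits. Replicates of a group differed by more than sampling noise (chi-square per degree of freedom of at least 7.43 in all 24 pairs). Fits were tested on simulated data. The members and gene lists were chosen with earlier results of these data known; 2 alternatives, leaving out the cortex or the libraries rich in choroid plexus markers, were chosen after seeing the data. Genes named are the copies, family features that passed the filter, the 2 nearest tested neighbours on each side, the regulators and partners (1 of the 8 is not reported here), the 2 imprinted genes of smallest p and the 5 most like genes on each measure; F8a, Gabrq, the low-count family features and Clic6 were named after their values were seen.

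Whether equal library numbers pair the genotypes was checked by correlating deviations from group means over genes with a mean of at least 1 CPM. Every equal-numbered pair had r over 0.1 in the cerebellum (0.32 to 0.69), hippocampus (0.32 to 0.59) and olfactory bulb (0.34 to 0.81). By this cut these regions are taken as paired, and the cortex (-0.09 to 0.68) is not. Unequal numbers reached r = 0.20, 0.36 and 0.48 in the 3 paired regions, in the same order. Of 24 library comparisons between genotypes 17 correlated best with their own number, and in the olfactory bulb 3 of 6. The pairing is thus weak. The main knockout fits and the test of their differences between regions used no block, so their SEs and p-values leave this pairing out. With the block the mean difference was -1.61 (SE 0.22) for the Xlr3 sum and -2.02 (SE 0.38) for the Xlr4 sum. Genes called then numbered 1256 in place of 462. Sequences and promoter windows are from RefSeq, build GRCm38.p6; all 4 copies matched by symbol. Transcripts were aligned with Biopython 1.88.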

Additional observations from a re-analysis of the deposited data

How the results depend on the processing

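Of 970 values of the knockout minus wild-type difference under the alternatives (DESeq2, other size factors, no filter, the replicate block, other sets of libraries, each library left out), 968 were below 0. All are refits of the same 24 libraries for genes chosen from this contrast, so this count lends the difference no support. Leaving out a library of 1 region hardly touches the difference in another. The 2 above 0 came from the hippocampus without the choroid-plexus-rich libraries, where 1 wild-type library remained: 0.70 for Xlr3a and 3.81 for Xlr4a, with -0.33 for the Xlr3 sum and -0.47 for the Xlr4 sum. The hippocampal Xlr4 sum was -1.29 with the other Xlr4 features added. With 1 library left out, the mean difference ranged from -1.79 to -1.55 for the Xlr3 sum and from -2.29 to -1.89 for the Xlr4 sum, and a lone library is assumed to vary like the others. The replicate block gave -1.61 and -2.02 for these means. Region differences changed more: in wild type the adjusted p of the Xlr3 sum was 0.178, and 0.00384 with the replicate block and 0.0107 without the libraries numbered 2, and that of the Xlr4 sum was 0.0983, not called, and 0.0870 with the other Xlr features added, against 0.0284 (DESeq2), 0.0291 (replicate block), 0.0304 (without number 2), 0.0228 (without choroid-plexus-rich libraries), 0.0400 (all 24 libraries in 1 edgeR fit) and 0.0253 to 0.241 with 1 library left out. The block also gave wild-type edgeR adjusted p of 0.000763 for Xlr3b (0.158 without it), 0.0458 for Xlr4a (0.345 without it) and 0.0800 for Xlr4b (0.0435 without it), and 0.0507 for Xlr4b between cerebellum and hippocampus (0.0304 without it). In knockout the Xlr3 sum had 0.0631 without the choroid-plexus-rich library, 0.121 in the fit of all 24 libraries and 0.00417 to 0.106 with 1 library left out. Between regions, equal-numbered libraries did not all correlate over 0.1 (0.09 to 0.68 in wild type, -0.00395 to 0.73 in knockout), so by this cut the numbers are not taken as pairs there. Even so, 35 of 36 wild-type and 29 of 36 knockout library comparisons correlated best with their own number. The main region tests used no block and may leave out this shared part. Genes called in the mean contrast numbered 462 in edgeR, 790 in DESeq2, 1256 with the block, 200 without number 2, 99 without the choroid-plexus-rich libraries, 217 without the cortex and 0 with libraries summed over regions. Genes whose knockout difference varied between regions numbered 4 in edgeR, 41 in DESeq2, 11 with the block, 0 without the choroid-plexus-rich libraries and 0 to 21 with 1 library left out. The cause of these changes was not tested. Counts of 0 to 28 per knockout library limit the Xlr4 copies.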
